A study of Triticum dicoccoides with 12 samples.

Results

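Transcript levels of wild emmer wheat genotype Y12-3 (drought-resistant, R) were compared with those of genotype A24-39 (drought-susceptible, S) in well-watered plants. Each difference rests on 6 of the 12 arrays of the series, 3 of well-watered R and 3 of well-watered S, chosen by the genotype and water regime in the sample titles. All 12 arrays enter the filter and the estimate of spread behind the p-values. The other 6 arrays, 3 of droughted R and 3 of droughted S, come from the same genotypes under terminal drought and serve here as samples on which a genotype difference can be measured again. All samples were of Triticum dicoccoides, were labelled as phyllome (leaf-like organs) of plants aged 10 weeks in reproductive growth, and were grown in quartz sand with peat. The labels name no agent or treatment other than the water regime. Each resistance class is represented by 1 genotype, so a difference found here is between Y12-3 and A24-39. Whether replicates are separate plants is not stated in the labels, and p-values here speak only of the spread among these samples, part of which may be technical.

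Wild emmer is the tetraploid wild ancestor of durum and bread wheat, and its natural populations differ widely in how they cope with dry seasons. Differences between genotypes that are present before any stress are called constitutive, to set them apart from responses that drought brings about. The Affymetrix wheat array reads each transcript with a probe set of short oligonucleotides designed on wheat sequences. The signal of a probe set depends both on the amount of the transcript and on how well it matches these probes, so more transcript and a better sequence match cannot be told apart in a comparison of genotypes. In leaf tissue, fewer cells of a type and less RNA per cell cannot be told apart either. Probe sets are given by their array ID, in which Ta with a number stands for a cluster of wheat transcript sequences and x marks sets with probes that can match other transcripts. The annotation names a gene for 969 of the 38398 probe sets tested, nearly all of them as bare locus numbers, so most differences below carry no gene name.

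Signals are MAS5 intensities on a linear scale, as the authors deposited them. A signal above 129, the 95th percentile of 23 probe sets that target no wheat transcript, is called above the control level. One below it may still come from a transcript present at a low level. Well-watered R replicate 3 stood apart: 33042 of its probe sets lay above the control level, against 27343 and 24454 in the other R arrays and 23928 to 24215 in the S arrays. The mean of its signals without the lowest and highest 2% was 500, as on every array. Pearson's r between arrays was 0.876 to 0.890 within well-watered R, 0.921 to 0.931 within well-watered S, and 0.815 to 0.888 between the genotypes, over the tested probe sets. These values run across probe sets, and probe sets are no independent replicates. The median SD of a probe set within a group was 0.49 in well-watered R and 0.38 in well-watered S on the scale of log2(signal + 16), on which all differences below are given as R minus S ± SE.

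Well-watered R and S differed in 2797 of 38398 probe sets (7.28% called at a Benjamini-Hochberg adjusted p of 0.05, limma). Of these, 1676 were higher in R (4.36%) and 1121 were lower in R (2.92%). With signals below the control level (defined above) raised to it, 2079 of the called differences were of at least 2-fold, 761 of at least 4-fold and 75 of at least 16-fold. As fitted, the smallest called difference was 0.63 on the log2 scale, against a median size of 2.15 among the called and 0.48 among all tested. In 2754 of the called probe sets the 3 R arrays and the 3 S arrays did not overlap, as they did not in 26.2% of all tested probe sets. At an unadjusted p of 0.05, 21.1% of the tested probe sets passed. The balance of the directions turned with the scaling of the arrays and is given after the members.

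Set against the control level, the called probe sets fell into 4 kinds. All-or-none differences, with every array of one genotype above the level and every array of the other below it, made up 454 probe sets above it in R and 252 above it in S. Graded differences, with all 6 arrays above the level, made up 547 that were higher and 613 that were lower in R. A further 663 higher and 252 lower ones were mixed, since some but not all arrays of a genotype passed the level, and 12 higher and 4 lower ones lay below it on every array. Shares of all tested probe sets were 1.18% and 0.656% for the all-or-none kinds of R and S, and 1.42% and 1.6% for graded ones higher and lower in R. The kinds were split by the same signals that were tested, so their sizes are a description.

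**Figure D1:**
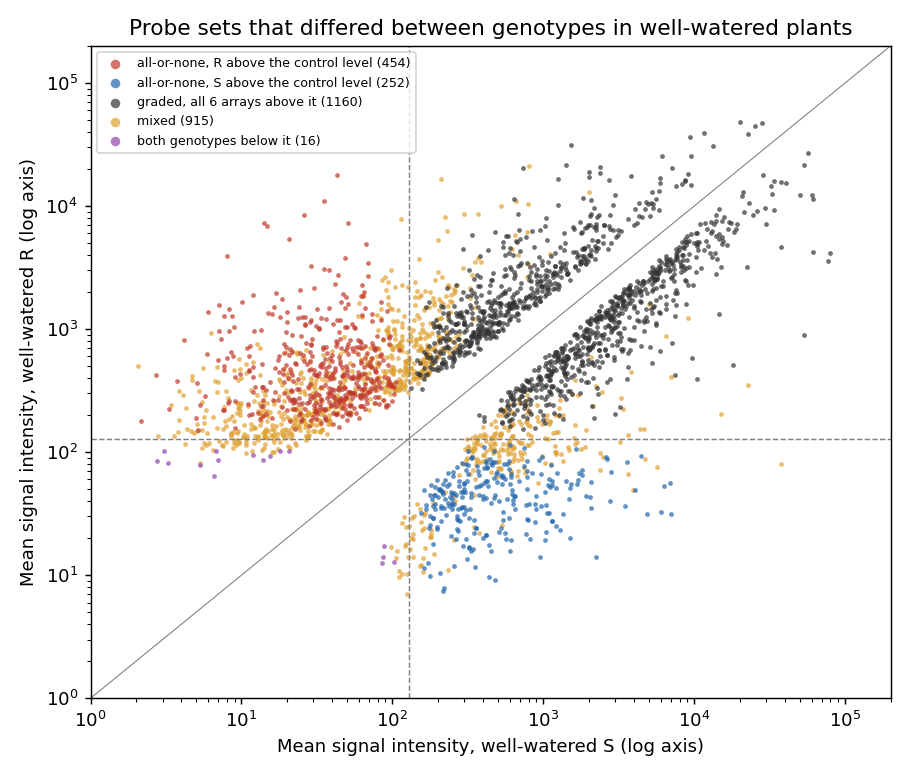
Mean signal in well-watered R (vertical) against mean signal in well-watered S (horizontal), both on log axes, for the 2797 probe sets that differed. Each point is 1 probe set coloured by kind, dashed lines mark the control level of 129, and the diagonal marks equal signal; the 454 all-or-none points of R lie in the upper left and the 252 of S in the lower right.

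Probe sets above the control level in R and below it in S had mean R signals from 150 to 17916, most of them toward the low end. The median of their mean signal in R was 407, and 74 of the 454 passed 1000 and 7 passed 5000. Because the S signal is only bounded by the control level, each ratio is a lower bound, computed from means of log2 signals with S arrays set to the control level. This bound was at least 2-fold for 345 probe sets and at least 10-fold for 34. Within this kind the largest difference was that of Ta.28354.3.S1_x_at, with signals of 21879, 12944 and 18925 in well-watered R, against 80.5, 8.91 and 38.7 in well-watered S. All 3 R arrays were above all 3 S arrays, and the R level was at least 136-fold higher (difference 8.43 ± 0.42, adjusted p = 1e-07, limma). Ta.28803.1.A1_at had 7326, 8276 and 6334 in well-watered R, against 9.88, 25.8 and 6.95 in well-watered S. Its R arrays lay within a narrow band, and the R level was at least 56.3-fold higher (7.96 ± 0.34, adjusted p = 2.2e-08). Signals of Ta.7259.1.S1_a_at were 5749, 8528 and 6556 in well-watered R, against 9.39, 32.5 and 2.07 in well-watered S. The R level of this probe set was at least 53.1-fold higher (7.93 ± 0.34, adjusted p = 2.2e-08). For Ta.28263.1.S1_at they were 8755, 12647 and 11346 in well-watered R, against 63.6, 9.86 and 31.6 in well-watered S. Here the R level was at least 83.6-fold higher (7.87 ± 0.42, adjusted p = 1.8e-07). Ta.19805.2.S1_a_at measured 10113, 5201 and 10197 in well-watered R, against 41.9, 5.89 and 30.1 in well-watered S. R replicate 2 was the dimmest of its R arrays, and the R level was at least 63.0-fold higher (7.71 ± 0.67, adjusted p = 9.8e-06). None of these 5 probe sets is paired with a gene, and all 5 kept their call under each of 4 other scalings and without any 1 of the 6 well-watered arrays.

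Among named genes, 4 probe sets of 3 genes were all-or-none in R. One of them reads LOC542771 and is described with that gene's other probe set. LOC606308 was read by 2, Ta.21262.1.A1_at and Ta.21262.1.A1_x_at, which share their cluster. Signals of Ta.21262.1.A1_at were 1123, 265 and 497 in well-watered R, against 8.01, 2.53 and 7.26 in well-watered S, and those of Ta.21262.1.A1_x_at were 1211, 173 and 458 in well-watered R, against 22.7, 37.3 and 1.83 in well-watered S. The R arrays of both were uneven, with replicate 1 the brightest, and the bounds were at least 4.10-fold and 3.55-fold (adjusted p = 0.0015 and 0.011). LOC543438, read by Ta.169.1.S1_x_at, had 2528, 227 and 797 in well-watered R, against 16.9, 40.8 and 28.9 in well-watered S. R replicate 1 was over 10 times as bright as replicate 2, and the bound was at least 5.97-fold (adjusted p = 0.015). When dim signals were raised to the control level, none of these 3 probe sets was called (adjusted p = 0.18, 0.29 and 0.19 in the order given). Some of these calls were also lost when 1 array was left out, for Ta.169.1.S1_x_at without R replicate 1 or R replicate 3 or S replicate 1 (adjusted p = 0.053 and 0.081 at the lowest and highest) and for Ta.21262.1.A1_x_at without R replicate 1 or S replicate 3 (adjusted p = 0.0503 and 0.064).

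Probe sets below the control level in R and above it in S had a median of their mean signals of 416 in S. Of the 252, 48 passed 1000 and 4 passed 5000 in S, and the bound on the ratio was at least 2-fold for 184 and at least 10-fold for 30. Ta.774.2.S1_at led them, with 20.3, 37.4 and 36.4 in well-watered R, against 8263, 6002 and 6682 in well-watered S. R was at least 53.6-fold lower (−7.22 ± 0.41, adjusted p = 2.4e-07). Cluster Ta.21556 was read by 2 probe sets that moved together. Ta.21556.1.S1_at measured 57.4, 17.7 and 23.6 in well-watered R, against 3914, 4874 and 9408 in well-watered S. Ta.21556.1.S1_x_at of the same cluster measured 116, 4.61 and 38.4 in well-watered R, against 4056, 4951 and 10028 in well-watered S. S replicate 3 was the brightest array of both, and R stood at least 43.7-fold and 45.4-fold below S, with adjusted p of 9.9e-05 and 0.00054. TaAffx.12065.1.S1_at had 20.8, 24.7 and 48.4 in well-watered R, against 5186, 4258 and 5201 in well-watered S. Its 3 S arrays were close to each other, and R was at least 37.7-fold lower (−6.73 ± 0.36, adjusted p = 1.8e-07). Ta.23191.1.S1_at had 64.6, 16.3 and 87.8 in well-watered R, against 4752, 3856 and 12272 in well-watered S. S replicate 3 was again the brightest, and R was at least 47.1-fold lower (−6.56 ± 0.64, adjusted p = 2.3e-05). These 5 probe sets have no gene name and kept their call under the 4 other scalings and without any 1 of the 6 well-watered arrays.

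Named genes made up 8 probe sets (7 genes) of this kind. LOC543440 (Ta.13444.1.S1_at) measured 74.7, 81.8 and 19.6 in well-watered R, against 1529, 1166 and 1567 in well-watered S. R was at least 10.9-fold lower (adjusted p = 4.1e-05). LOC542846 (Ta.28758.1.S1_at) measured 18.2, 14.6 and 81.4 in well-watered R, against 638, 1257 and 762 in well-watered S. The bound for it was at least 6.58-fold (adjusted p = 0.00064). LOC543338 (Ta.9320.1.S1_at) measured 14.3, 49.6 and 67.9 in well-watered R, against 678, 834 and 1176 in well-watered S. Its R arrays were all below the control level and its S arrays all several times above it, at least 6.76-fold apart (adjusted p = 2.4e-05). The other probe set of LOC543338, Ta.9320.1.S1_x_at, read R at least 6.30-fold below S (adjusted p = 9.5e-05).

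**Figure D2:**
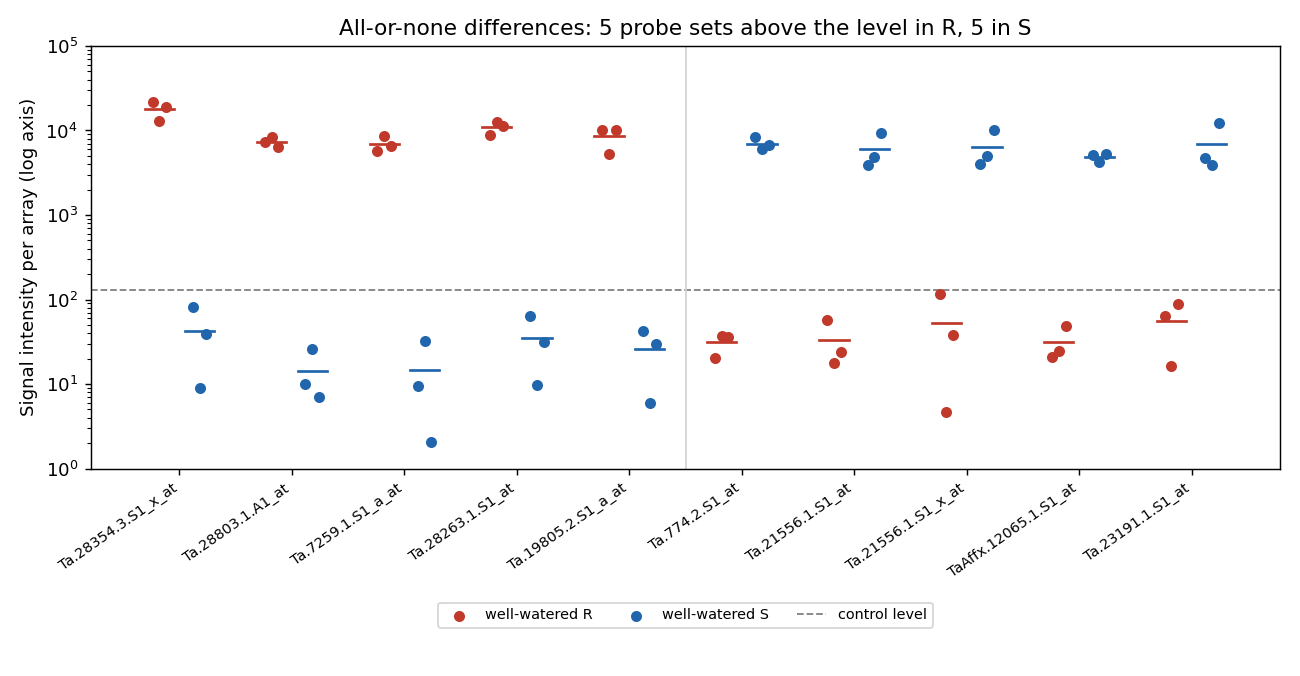
Signal intensity on each well-watered array (log axis) for the 5 all-or-none probe sets with the largest difference above the control level in R (left) and in S (right). Points are arrays, R left of S, short bars are means of 3 arrays, and the dashed line is the control level of 129; the bright genotype lies between 3856 and 21879 and the dim one between 2.07 and 116.

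The border of this kind is a matter of a few signal units. In R, TaAffx.105598.1.S1_at counted as all-or-none with an S array at 128.72, whereas Ta.4078.1.S1_x_at did not, with an S array at 129.08. On the bright side, the R array nearest to the level lay at 129.96 for Ta.14101.1.S1_at, which counted, and at 128.89 for Ta.5790.1.S1_a_at, which did not. Likewise Ta.1175.1.S1_at counted as all-or-none in S with an R array at 128.85, and Ta.9744.1.S1_at did not with one at 129.19. Single arrays moved the border. Without R replicate 2, the dimmest R array, which leaves 2 R arrays to pass the level, 874 probe sets were all-or-none in R in place of 454, and 315 in S in place of 252. The number in S was 318 without R replicate 3 and 187 without S replicate 3. With the level at the highest control signal, 350, the kinds held 403 and 290.

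Graded differences were smaller and came from brighter probe sets. The 547 that were higher in R had median signals of 1734 in R and 569 in S and a median difference of 1.38, with 461 of at least 2-fold, 128 of at least 4-fold and 4 of at least 16-fold. TaAffx.28620.1.S1_at measured 21859, 19142 and 20054 in well-watered R, against 1183, 748 and 272 in well-watered S. The R arrays were close to each other, and the difference was 4.99 ± 0.75 (adjusted p = 0.00088). Ta.21340.1.S1_a_at measured 17710, 10346 and 5892 in well-watered R, against 147, 346 and 1414 in well-watered S. Its S arrays spread over nearly 10-fold, yet all lay below the R arrays (4.55 ± 0.79, adjusted p = 0.0027). Ta.14946.1.S1_at measured 38060, 21429 and 34065 in well-watered R, against 723, 1516 and 2328 in well-watered S. The difference was 4.45 ± 0.38 (adjusted p = 7.8e-06). Ta.22572.1.S1_at measured 10357, 3243 and 3905 in well-watered R, against 222, 280 and 507 in well-watered S. R replicate 1 was its brightest array (3.94 ± 0.59, adjusted p = 0.00085). Ta.9600.1.S1_x_at measured 18917, 13482 and 17586 in well-watered R, against 1048, 934 and 1767 in well-watered S. S replicate 3 was its brightest S array, and the difference was 3.76 ± 0.54 (adjusted p = 0.00061). No gene is paired with these 5 probe sets, which kept their call under 4 other scalings and without any 1 well-watered array.

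Of named genes, 29 probe sets (23 genes) were graded and higher in R. LOC542869 was read by 2 probe sets, Ta.262.1.S1_x_at with 4214, 6966 and 5113 in well-watered R, against 199, 1727 and 170 in well-watered S, and Ta.262.1.S1_at with 4066, 6923 and 4538 in well-watered R, against 281, 1422 and 269 in well-watered S. S replicate 2 was the brightest S array of both, and the differences were 3.70 ± 0.60 and 3.35 ± 0.53 (adjusted p = 0.0017 and 0.0013). LOC100037560 (Ta.3976.1.S1_at) measured 10861, 4159 and 4008 in well-watered R, against 178, 289 and 1594 in well-watered S. Its spread was wide in both genotypes (3.63 ± 0.89, adjusted p = 0.024). It was lost without R replicate 1 or R replicate 3 or S replicate 1 or S replicate 2 (adjusted p up to 0.12) and when dim signals were raised to the control level (adjusted p = 0.095).

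The 613 graded probe sets that were lower in R had median signals of 1043 in R and 2792 in S, with a median difference of −1.30. At least 2-fold differences were found in 462, at least 4-fold ones in 94 and at least 16-fold ones in 8. TaAffx.80290.1.S1_x_at measured 951, 203 and 1541 in well-watered R, against 51756, 58145 and 50048 in well-watered S. R arrays were all far below S arrays (−6.27 ± 0.55, adjusted p = 1e-05). Ta.1337.1.S1_x_at measured 328, 551 and 667 in well-watered R, against 15067, 18776 and 20436 in well-watered S. The difference was −5.14 ± 0.46 (adjusted p = 1.3e-05). Ta.26907.1.S1_at measured 177, 6583 and 5932 in well-watered R, against 70601, 62679 and 51393 in well-watered S. R replicate 1 lay far below the other R arrays, and the difference of −4.96 ± 1.08 (adjusted p = 0.012) became −4.85 (adjusted p = 0.051) without S replicate 1. Ta.9718.1.S1_at measured 225, 284 and 666 in well-watered R, against 9916, 12025 and 9577 in well-watered S. The difference was −4.83 ± 0.41 (adjusted p = 7.8e-06). Ta.10480.1.S1_a_at, which reads LOC542947, measured 2136, 2075 and 6482 in well-watered R, against 85803, 76279 and 67379 in well-watered S. R replicate 3 was the brightest R array and still over 10 times dimmer than every S array (−4.63 ± 0.51, adjusted p = 5.8e-05).

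Besides LOC542947, the locus-numbered genes with the largest graded differences among those lower in R were LOC543258 and LOC606363. LOC543258 (Ta.1544.1.S1_at) measured 220, 155 and 328 in well-watered R, against 3355, 3737 and 2513 in well-watered S. All R arrays lay just above the control level, at under 3 times it, and all S arrays at over 10 times it (−3.72 ± 0.33, adjusted p = 1e-05). LOC606363 (Ta.23917.3.S1_x_at) measured 743, 1322 and 1917 in well-watered R, against 13380, 17383 and 13050 in well-watered S. The difference was −3.53 ± 0.55 (adjusted p = 0.0012). In all, 25 probe sets of 23 named genes were graded and lower in R. Over the whole comparison, 79 of 969 probe sets with a gene name were called (8.15%), near the 7.28% of all tested.

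**Figure D3:**
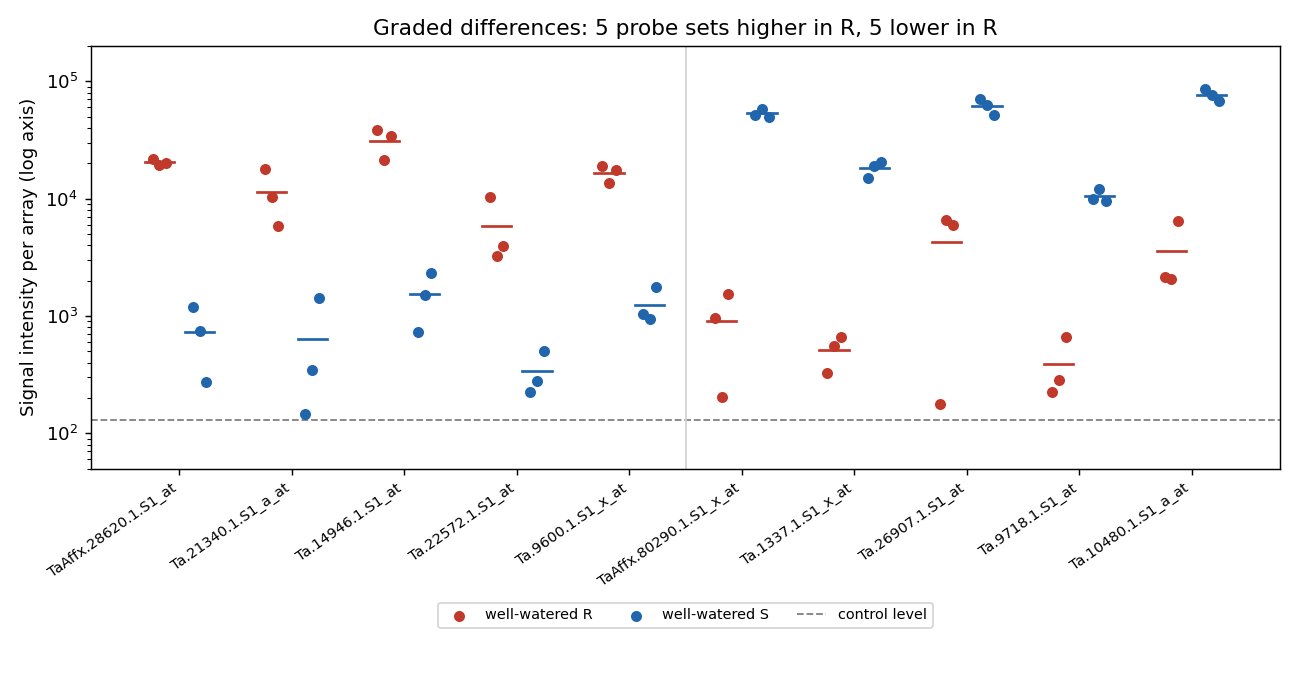
Signal intensity on each well-watered array (log axis) for the 5 graded probe sets with the largest difference that were higher in R (left) and lower in R (right). Points are arrays, R left of S, short bars are means of 3 arrays, and the dashed line is the control level of 129; in each of the 10 probe sets the 3 R and the 3 S arrays do not overlap.

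Mixed probe sets were outside the rule for naming, and the leading one in each direction is given after its values were seen. Ta.27457.5.S1_x_at measured 151, 63.0 and 25.0 in well-watered R, against 31380, 49742 and 31923 in well-watered S. It was the largest difference of the whole comparison, with 1 of its R arrays above the control level (−8.82 ± 0.49, adjusted p = 2.4e-07), and it was called under the 4 other scalings and without any 1 of the 6 well-watered arrays. On the drought arrays it measured 297, 145 and 68.9 in droughted R, against 61386, 41741 and 76279 in droughted S (−8.48 ± 0.49, adjusted p = 2.7e-07). TaAffx.6687.1.S1_at measured 11950, 12761 and 8386 in well-watered R, against 12.1, 1954 and 3.57 in well-watered S. S replicate 2 was its 1 S array above the control level (6.73 ± 1.27, adjusted p = 0.0049). Neither is paired with a gene.

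The mixed probe sets showed which arrays crossed the control level. Of the 663 that were higher in R, 329 had no S array above the level and 333 had all 3 R arrays and 1 or 2 S arrays above it. In 262 probe sets exactly 2 R arrays and no S array passed it, and the R array that did not was replicate 2 in 211, replicate 1 in 25 and replicate 3 in 26. In 67 others a single R array passed it, which was replicate 3 in 41. Of the 252 that were lower in R, 133 had all 3 S arrays and 1 R array above the level, and that R array was replicate 3 in 70. The median signal of the R arrays was highest for replicate 3 (152) and lowest for replicate 2 (78.2), with replicate 1 at 103. Replicate 3 was the brightest R array in 41.4% of all tested probe sets, but in 106 of the 547 graded ones that were higher in R, where replicate 1 was the brightest in 273.

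The annotation holds 13 genes with a symbol (19 probe sets), of which 8 (11 probe sets) passed the filter. Of these 11 probe sets 1 was called, against 7.28% of all tested, and so few cannot be set apart from that share. TBP1, the TATA-binding protein that starts assembly of the transcription machinery, measured 1048, 970 and 614 in well-watered R, against 2140, 1682 and 1650 in well-watered S. It was lower in R on every array and was the 1 gene called among these (−1.07 ± 0.24, adjusted p = 0.016). TBP1 (Ta.15.1.S1_at) was not called once arrays were scaled to the hybridization controls (−1.35, adjusted p = 0.12) or to the poly-A controls (−0.88, adjusted p = 0.32), nor without R replicate 3 (−0.83, adjusted p = 0.065) or S replicate 1 (−0.95, adjusted p = 0.08). CAT1, a catalase that turns hydrogen peroxide into water and oxygen, measured 36107, 48660 and 33195 in well-watered R, against 65969, 62039 and 62398 in well-watered S. The R arrays lay below the S arrays, but the difference of −0.71 ± 0.22 did not pass the threshold (adjusted p = 0.067), while Ta.442.1.S1_at did so once arrays were set to the same median (−0.98, adjusted p = 0.035), or without R replicate 2 (−0.87, adjusted p = 0.032). It also passed without R drought replicate 1, which leaves its difference at −0.71 (adjusted p = 0.039).

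FBP, the fructose bisphosphatase that serves the Calvin cycle or sucrose synthesis, measured 10501, 15085 and 12564 in well-watered R, against 15541, 16057 and 15589 in well-watered S. GAPN, a non-phosphorylating glyceraldehyde-3-phosphate dehydrogenase that makes NADPH, measured 7953, 10400 and 7526 in well-watered R, against 11043, 12915 and 10967 in well-watered S. The R arrays of both genes lay below the S arrays by small margins, and neither was called (−0.32 ± 0.45 and −0.44 ± 0.49, adjusted p = 0.74 and 0.67). petC, which carries electrons as the Rieske protein of the cytochrome b6f complex, measured 55784, 48897 and 68748 in well-watered R, against 66381, 66502 and 55728 in well-watered S. Its groups overlapped (−0.13 ± 0.29, adjusted p = 0.84). SAHH, which recycles S-adenosylhomocysteine in the methyl cycle, was read by 2 probe sets with differences of 0.08 ± 0.25 and 0.26 ± 0.31, and TUBA, an alpha-tubulin of the cytoskeleton, by 1 tested probe set with 0.22 ± 0.24 (adjusted p = 0.9, 0.69 and 0.66). XTH, a cell wall enzyme of the xyloglucan endotransglucosylase/hydrolase family, had 17.4, 11.8 and 28.3 in well-watered R, against 33.8, 40.7 and 185 in well-watered S. A single S array and no R array passed the control level, so the XTH level was not measured in R or on the other S arrays (−1.26 ± 0.64, adjusted p = 0.28). Dimmer probe sets of FBP and CAT1 pointed the other way from the bright ones, at 1.38 ± 0.62 and 1.03 ± 0.51, with neither called (adjusted p = 0.22 and 0.27).

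The 8 probe sets of symbol-bearing genes that were below the filter read COR410 (a dehydrin-type protein), PFK (a phosphofructokinase), the defence peptides THI1.2, TTHV and THI1.1 (thionins), and further sequences of TUBA and petC. On the 6 well-watered arrays, 3 of them passed the control level once each, a THI1.1 probe set at 185, THI1.2 at 230 and PFK at 202, each on the bright R replicate 3. Of the 10 gene lists used, 8 matched an annotated gene and 6 had a tested one. The transcription list held TBP1, called lower, and the lists of leaf and photosynthesis (FBP, petC), sugar and triose phosphate metabolism (FBP, GAPN), reactive oxygen (CAT1), methyl cycle (SAHH) and cell wall and cytoskeleton (TUBA, XTH) held 0 called probe sets as deposited, against 7.28% of all tested (limma). The dehydrin list and the defence and thionin list had no tested gene, and the lists of grain storage and flower genes matched none. For the leaf label, 1 probe set each of FBP and petC lay far above the control level on all 6 arrays. The other FBP probe set passed the level on 2 of the 6 arrays, both of R, and the other petC one on none. No gene of the grain storage or flower lists could be set against this label. The thionins, also planned as markers of endosperm, were below the filter and passed the level only on R replicate 3.

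Control probe sets for wheat transcripts, which were left out of the tests, gave named levels as well. Glucose-6-phosphate dehydrogenase, which feeds the oxidative pentose phosphate pathway and supplies NADPH, is read at 3 places along its transcript. The middle probe set measured 742, 715 and 729 in well-watered R, against 214, 396 and 377 in well-watered S. At the 3′ end the signals were 1334, 995 and 945 in well-watered R, against 609, 645 and 825 in well-watered S. R arrays lay above S arrays at both places, by 1.16 and 0.64 on the log2 scale with no test, while the groups overlapped at the 5′ end (0.62). Such separation was not particular to this transcript, since arrays did not overlap in 26.2% of all tested probe sets. Control probe sets of GAPDH (1.65 at the 3′ end, 1.70 for gapdh-5_x), ef1a (1.36, middle) and actin (−0.69 for actin-M_x) did not overlap either. Each of these had some signals below the control level. Sucrose synthase, which cleaves sucrose for sink metabolism, had overlapping groups at all 3 places, with 3′ signals of 3471, 2724 and 3269 in well-watered R, against 3875, 2579 and 5277 in well-watered S. Ubiquitin, the tag for protein degradation, overlapped at all 3 places too, with differences of 0.06 (5′), −0.13 (middle) and −0.01 (3′). The ratio of 3′ to 5′ signal, a measure of RNA integrity, was 0.205 to 0.336 in well-watered R and 0.232 to 0.283 in well-watered S for ubiquitin. For sucrose synthase it was 12.4 to 27.1 in well-watered R and 15.7 to 75.9 in well-watered S, and for actin 0.782 to 7.74 in well-watered R and 1.92 to 2.54 in well-watered S. It was 0.436 to 0.586 in well-watered R and 0.0442 to 0.595 in well-watered S for GAPDH and 0.117 to 1.30 in well-watered R and 0.917 to 5.73 in well-watered S for the elongation factor ef1a. Apart from ubiquitin, each of these 4 ratios had at least 1 end below the control level on some of the 6 arrays.

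Probe sets of the same sequence cluster nearly always differed in the same direction, and a few did not. Of 229 clusters with at least 2 called probe sets, 217 had them all higher in R (122) or all lower (95), and 12 held calls in both directions. Probe sets of a cluster can share probes, so same directions are not independent of each other. In cluster Ta.22966, Ta.22966.2.S1_at measured 2840, 2339 and 2429 in well-watered R, against 225, 473 and 351 in well-watered S. Ta.22966.3.S1_at measured 46.8, 20.9 and 103 in well-watered R, against 2884, 1257 and 2105 in well-watered S. The other one, Ta.22966.3.S1_x_at, was lower in R as well, and the differences were 2.86 ± 0.28, −4.93 ± 0.51 and −2.40 ± 0.33 (adjusted p = 2.6e-05, 3.6e-05 and 0.00041). The cluster of the leading R probe set, Ta.28354, also held Ta.28354.4.S1_at, which was lower in R with 774, 1183 and 879 in well-watered R, against 2170, 1488 and 3109 in well-watered S (−1.20 ± 0.33, adjusted p = 0.041), a call that hybridization control scaling (adjusted p = 0.1) or poly-A control scaling (0.24) ended.

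In cluster Ta.5479, Ta.5479.2.A1_at was all-or-none in S, with 41.6, 36.2 and 8.58 in well-watered R, against 417, 463 and 1478 in well-watered S (−4.01 ± 0.60, adjusted p = 0.00082). Ta.5479.1.A1_x_at of that cluster was higher in R, with 1679, 1235 and 2007 in well-watered R, against 485, 383 and 687 in well-watered S (1.64 ± 0.39, adjusted p = 0.019). Cluster Ta.5257 held 2 probe sets that were higher in R, Ta.5257.2.S1_s_at and Ta.5257.2.S1_x_at (4.77 ± 0.82 and 4.38 ± 0.70, adjusted p = 0.0025 and 0.0015), and Ta.5257.1.S1_s_at with a small difference the other way (−0.81 ± 0.21, adjusted p = 0.033). S replicate 2 was the 1 S array above the control level in Ta.5257.2.S1_s_at, at 824 against 32.7 and 20.8. The same array stood out in Ta.30807.2.S1_s_at of cluster Ta.30807, with 6281, 36226 and 9693 in well-watered R, against 137, 10977 and 280 in well-watered S. Its groups overlapped and its call lay at the threshold (4.04 ± 1.16, adjusted p = 0.04999), while Ta.30807.1.S1_at of that cluster was lower in R (−1.65 ± 0.42, adjusted p = 0.027).

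Several probe sets of a named gene mostly gave 1 direction too. Of 12 genes with at least 2 called probe sets, 10 had them on one side, with 7 genes higher and 3 lower in R. The other 2, LOC542771 and LOC100037659, are named here after their values were seen. For LOC542771, Ta.144.1.S1_at measured 8.57, 26.4 and 96.7 in well-watered R, against 636, 543 and 732 in well-watered S. Its other probe set, Ta.7979.1.A1_at, measured 168, 357 and 354 in well-watered R, against 125, 1.26 and 44.2 in well-watered S. The gene was thus all-or-none in S by Ta.144.1.S1_at (−3.73 ± 0.57, adjusted p = 0.00097) and all-or-none in R by the other (2.48 ± 0.65, adjusted p = 0.033), whose call was lost under 3 of the 4 scalings given below. The state of Ta.7979.1.A1_at was borderline, with 125 on an S array and 168 on an R array. With dim signals raised to the control level it was not called (1.02, adjusted p = 0.083). For LOC100037659, Ta.5480.1.S1_x_at was higher in R with 1141, 657 and 677 in well-watered R, against 135, 547 and 137 in well-watered S (1.79 ± 0.44, adjusted p = 0.026). TaAffx.86552.1.S1_x_at was lower in R with 73.4, 159 and 114 in well-watered R, against 482, 606 and 656 in well-watered S (−2.22 ± 0.44, adjusted p = 0.0067). Most of the smaller calls in these clusters and genes hung on single arrays. The calls of Ta.7979.1.A1_at, Ta.5480.1.S1_x_at, Ta.28354.4.S1_at and Ta.5479.1.A1_x_at were each lost when any 1 of 4 of the 6 well-watered arrays was left out, and those of Ta.30807.1.S1_at, Ta.30807.2.S1_s_at and Ta.5257.1.S1_s_at with any 1 of 5. Among the genes read in the same direction, LOC542830 was higher in R by 3.11 and 3.25 in its 2 probe sets, LOC100037602 by 1.58 and 1.96, LOC778392 by 1.66 and 1.68 and LOC100125712 by 0.65 and 0.85. LOC543463 was read by 3 probe sets with differences between 0.98 and 1.14. These smaller calls were not stable. All 5 calls of LOC100125712 and LOC543463 were lost under median scaling and under both control scalings, and those of Ta.27592.1.S1_at and Ta.22434.1.S1_x_at also with any 1 of the 6 well-watered arrays left out and with the replicate block (adjusted p = 0.074 and 0.061). Both calls of LOC778392 were lost under hybridization control scaling, and the groups of its Ta.351.2.S1_x_at overlapped, as did those of Ta.231.1.S1_x_at of LOC542830. LOC543095 and LOC100037539 were lower in R, with −2.58 and −1.62 for the first-named and −2.39 and −1.35 for the other. Both are read by cluster Ta.1282, so they are not independent of each other. Ta.1282.4.S1_at lost its call without any 1 of 3 well-watered arrays, and Ta.1282.1.S1_x_at and Ta.1282.2.S1_x_at under poly-A control scaling (adjusted p = 0.064 and 0.12). Ta.30816.1.S1_at of LOC100037602 lost its call under median and hybridization control scaling (adjusted p = 0.066 and 0.22).

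Which genotype had more of the higher transcripts depended on how the arrays were scaled. As deposited, 1676 were higher and 1121 lower in R. Setting each array to the same median over tested probe sets turned this to 1144 and 1797, and quantile normalization evened it to 1444 and 1419. Scaling to the spiked hybridization controls gave 800 and 844, and scaling to the poly-A controls 1270 and 471. The median of all tested differences was 0.11 as deposited, −0.16 with median scaling, −0.04 with quantile normalization, −0.17 after hybridization control scaling and 0.30 after scaling to poly-A controls. No called probe set changed its sign under any of the 4. Apart from quantile normalization, each scaling moves all differences by the same amount. That amount was smaller than the smallest called difference of 0.63, so a change of sign was not possible there.

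The kinds differed in how many calls were kept in the same direction. Under median scaling and quantile normalization together, 252 of 252 all-or-none calls of S and 376 of 454 of R were kept (82.8%), as were 547 of 613 graded calls lower in R (89.2%) but 253 of 547 higher in R (46.3%). Median scaling lowers every difference, which enlarges calls lower in R and shrinks those higher in R. The gap between the directions therefore follows largely from the shift. Under all 4 scalings, 1223 of 2797 were kept, 767 higher and 456 lower in R. Among these were 74.4% of the all-or-none calls of R, 71.0% of those of S, and 20.7% and 23.2% of graded ones higher and lower in R. The median difference was 3.00 and −2.94 for all-or-none calls of R and S, against 1.38 and −1.30 for graded ones. Kind and size of a difference therefore cannot be told apart in these shares. The all-or-none numbers themselves came to 368 in R and 353 in S with median scaling, and the graded ones to 275 higher and 1021 lower.

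Leaving out the bright R replicate 3 lowered the calls to 1854, with 1019 higher and 835 lower in R. All-or-none probe sets then numbered 383 in R and 318 in S, and graded ones 350 and 359. Other single arrays mattered as much. The calls fell to 1555 (851 higher, 704 lower) without R replicate 1 and to 1546 (922 and 624) without S replicate 1, and those lower in R to 715 and 683 without S replicates 2 and 3. Graded calls fell to 256 higher and 333 lower without R replicate 1 and to 259 and 295 without S replicate 1, and those lower in R to 364 and 358 without S replicates 2 and 3. Each of the 6 arrays could be left out without loss of the call in 1171 probe sets, 287 of them all-or-none in R, 164 all-or-none in S, 199 graded and higher in R, and 230 graded and lower in R.

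**Figure D4:**
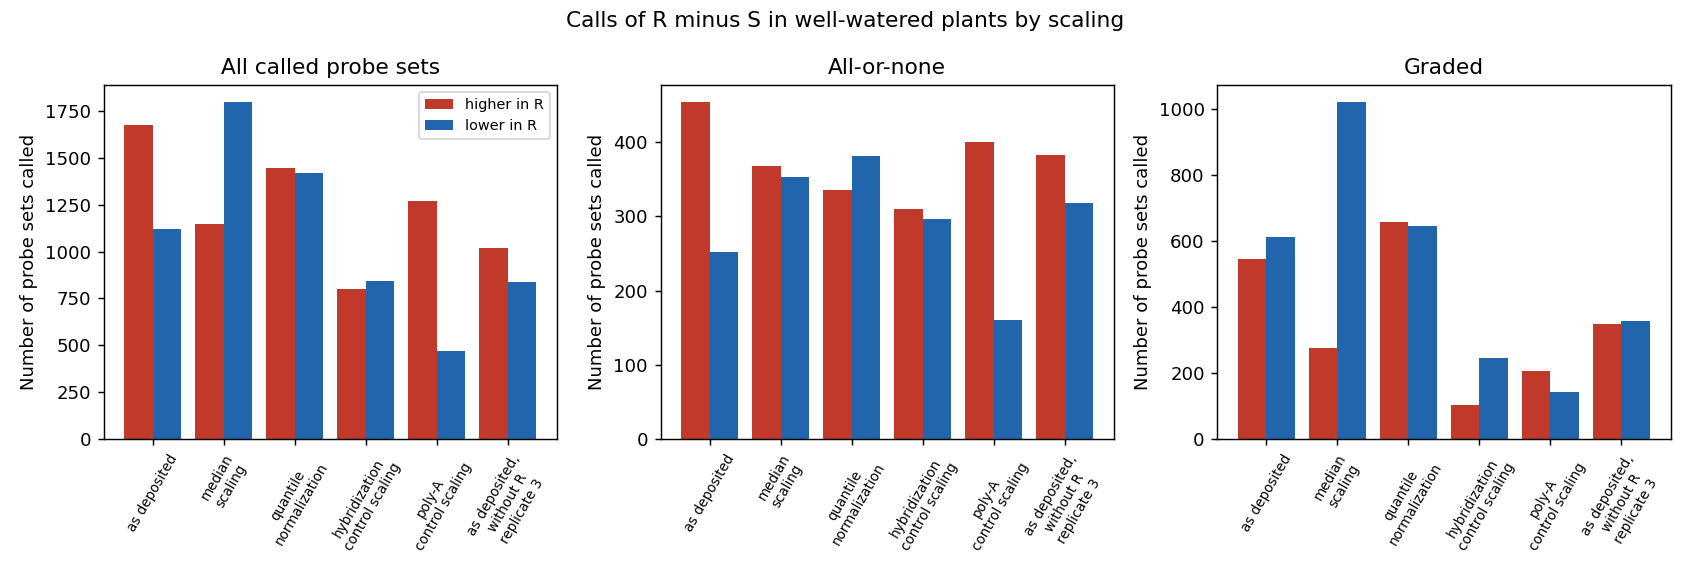
Number of probe sets called for R minus S in well-watered plants (vertical) under 5 scalings and without R replicate 3 (horizontal), for all calls, all-or-none and graded ones. Red bars count those higher in R and blue bars those lower in R; the balance turns from 1676 against 1121 as deposited to 1144 against 1797 with median scaling.

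The genotype difference was measured again on the 6 drought arrays, which share no array with the well-watered means. Of the 2797 well-watered calls, 1164 were also called in the same direction under drought, which is 41.6% of the well-watered calls and 40.5% of the 2873 drought calls, and 8 were called in the opposite direction. Over all tested probe sets, 7.48% were called under drought, 3.58% higher and 3.91% lower in R. Drought arrays of the genotypes did not overlap in 27.1% of all tested. Both contrasts come from a fit that shares the error of each probe set. All-or-none differences were repeated in 160 of 252 in S (63.5%) and 241 of 454 in R (53.1%), against 213 of 547 graded ones higher in R (38.9%) and 228 of 613 lower in R (37.2%). The difference between these shares was not tested. On the drought arrays, 202 of the all-or-none probe sets of R were again above the level on all R arrays and below it on all S arrays (44.5%, against 1.56% of all tested). The same held for 140 of those of S (55.6%, against 1.87%).

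Among the leading members, Ta.28354.3.S1_x_at measured 8207, 14223 and 13954 in droughted R, against 63.4, 115 and 80.4 in droughted S, with R at least 91.2-fold above S (adjusted p = 3.6e-07). Ta.28263.1.S1_at measured 6677, 5052 and 6425 in droughted R, against 5.73, 2.28 and 32.3 in droughted S, at least 46.5-fold apart (adjusted p = 1.8e-07). The all-or-none probe set TaAffx.12065.1.S1_at of S measured 9.22, 53.3 and 38.5 in droughted R, against 7324, 6469 and 5291 in droughted S. R stood at least 48.9-fold below S under drought (adjusted p = 1.4e-07), against at least 37.7-fold in well-watered plants. LOC606308 (Ta.21262.1.A1_at) had 7641, 1244 and 918 in droughted R, against 63.3, 2.39 and 34.0 in droughted S. There R was at least 15.9-fold above S (adjusted p = 0.00028). LOC542771 again differed in opposite directions, by −4.08 ± 0.57 and 2.24 ± 0.65 (adjusted p = 0.0004 and 0.0499), as did LOC100037659, by 2.12 ± 0.44 and −5.25 ± 0.44 (adjusted p = 0.009 and 4.7e-06). In cluster Ta.22966 all 3 probe sets kept their directions, at 2.11 ± 0.28, −6.20 ± 0.51 and −3.60 ± 0.33 (adjusted p = 0.00031, 3.8e-06 and 9.4e-06).

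Other leading members were called in well-watered plants and not under drought. Of the leading graded probe sets higher in R, only Ta.9600.1.S1_x_at was called again (1.91 ± 0.54, adjusted p = 0.045, limma). TaAffx.28620.1.S1_at, Ta.21340.1.S1_a_at and Ta.22572.1.S1_at were not (adjusted p = 0.51, 0.57 and 0.78). Their interactions did not pass either (adjusted p = 0.13, 0.073 and 0.067). Ta.14946.1.S1_at, higher in R when watered, measured 15482, 23744 and 21212 in droughted R, against 30720, 51512 and 57885 in droughted S. The drought arrays of R lay below those of S (−1.18 ± 0.38, adjusted p = 0.074), and the genotype differences of the 2 regimes differed (interaction of −5.64, adjusted p = 0.00052, drought minus well-watered). Ta.19805.2.S1_a_at measured 4.91, 9.19 and 145 in droughted R, against 3.05, 2.80 and 5.25 in droughted S. A single R array passed the control level, and the interaction passed the threshold (−6.55, adjusted p = 0.017). Ta.9718.1.S1_at measured 55.9, 38.4 and 13.2 in droughted R, against 92.8, 82.9 and 67.0 in droughted S, all below the control level, so that its drought difference was not measured. LOC543440 (Ta.13444.1.S1_at) measured 640, 746 and 836 in droughted R, against 1847, 463 and 1024 in droughted S. It lay above the control level in both genotypes, with overlapping groups (−0.37 ± 0.46, adjusted p = 0.71) and an interaction of 4.01 (adjusted p = 0.027). LOC543338 (Ta.9320.1.S1_at) measured 8633, 4041 and 4240 in droughted R, against 11888, 9138 and 6691 in droughted S. The large well-watered difference was smaller here (−0.76 ± 0.39, adjusted p = 0.29), with an interaction of 3.25 (adjusted p = 0.037). The interaction of its other probe set, Ta.9320.1.S1_x_at, was 2.30 and did not pass (adjusted p = 0.11). The well-watered arrays enter both the selection of these members and their interactions, so the interaction is not independent of the choice. Of the 1625 well-watered calls that were not called under drought, 24 passed the test of the interaction, which 0.148% of all tested probe sets did, so a different genotype difference under drought was not shown for the others.

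**Figure D5:**
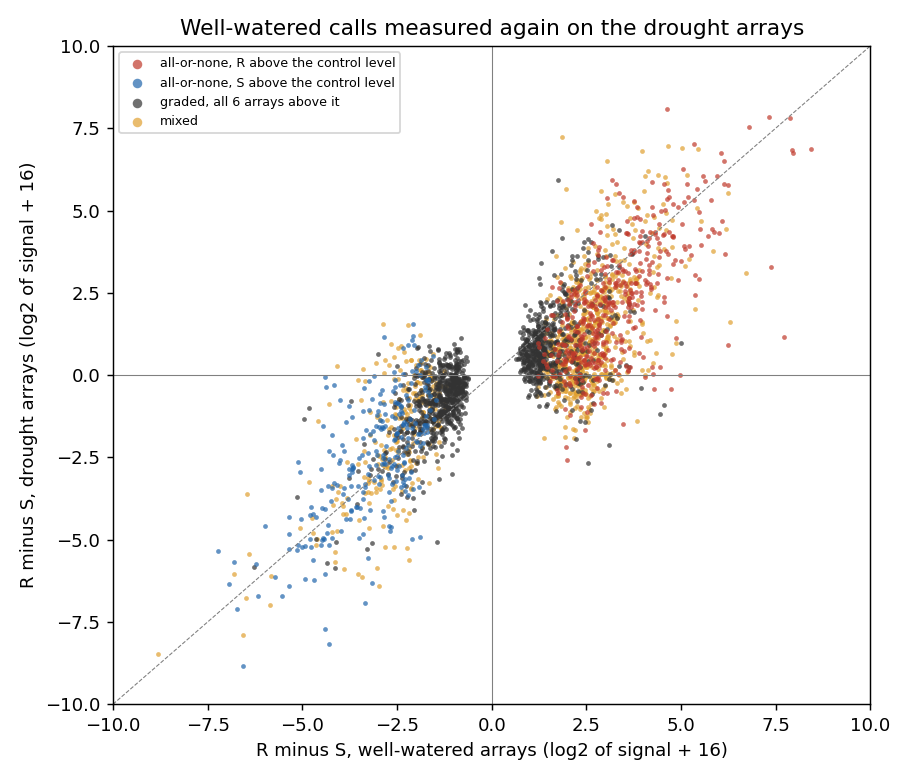
Genotype difference (R minus S, log2 of signal + 16) on the 6 drought arrays (vertical) against the 6 well-watered arrays (horizontal) for the all-or-none, graded and mixed probe sets called in well-watered plants. Each point is 1 probe set, coloured by kind, and the dashed line marks equal differences; 2378 of all 2797 calls (85.0%) had the same sign on the drought arrays.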

How the data were processed

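Total RNA of 12 samples was labelled with the Affymetrix one-cycle method and hybridized to 1 array per sample, per the labels' protocols. The authors deposited MAS5 signal intensities, per the submitters' processing notes. The sources used here give neither version nor scaling target. The mean signal without the lowest and highest 2% was 500.1 to 500.2 on all 12 arrays, so the deposited arrays already had a common trimmed mean. Groups and replicate numbers came from the titles.

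Of 61290 probe sets, 111 AFFX and 64 RPTR controls were left out, and 38398 of the other 61115 (62.8%) passed the filter (signal above the array's median on 3 or more of 12 arrays). limma fitted 4 group means to log2(intensity + 16) and was run as version 3.58.1 in R 4.3.3 (lmFit, eBayes with trend), with Benjamini-Hochberg adjustment over all tested probe sets within a contrast and a threshold of 0.05. The pseudocount shrinks differences of dim probe sets. Precision is limited by the 3 arrays of a group, with a median SE of 0.473. On simulated data with the measured spread for 38398 probe sets, of which 200 differed, this contrast recovered 4.05% of 2-fold, 35.2% of 4-fold and 65.5% of 8-fold differences and called 3 unchanged probe sets. The data gave 2797 calls, and the adjusted threshold loosens as more probe sets differ. These shares therefore do not give the sensitivity of the measured comparison.

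Named were, for all-or-none and graded differences in each direction, the 5 largest without overlap and up to 3 with a locus number, 5 clusters with calls in both directions, genes with a symbol or in one of 10 lists, and wheat control transcripts. Symbols came from the platform annotation of 2007 (1273 probe sets, 771 genes, 59842 unnamed). Members and lists were chosen with earlier results of these data known. Alternatives were other pseudocounts, scalings, filters and control levels, a fit to 6 arrays, a replicate block, and each array left out. Figures used matplotlib 3.10.9 in Python 3.11.15.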

Additional observations from a re-analysis of the deposited data

Results flagged for a closer look

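The test of the interaction, the genotype difference under drought minus that in well-watered plants, passed the threshold for 57 of 38398 probe sets (0.148%, limma). Among the named ones, Ta.19805.2.S1_a_at had an interaction of −6.55, Ta.14946.1.S1_at of −5.64, Ta.13444.1.S1_at (LOC543440) of 4.01, Ta.9718.1.S1_at of 3.85, Ta.9320.1.S1_at (LOC543338) of 3.25 and Ta.1544.1.S1_at (LOC543258) of 2.93. The sign is opposite to that of the well-watered difference in each of these 6. They were chosen for large well-watered differences, which the interaction subtracts, so their signs are no separate result. The drought arrays of Ta.1544.1.S1_at measured 74.0, 67.4 and 87.4 in droughted R, against 166, 158 and 113 in droughted S, with the R arrays below the control level and a single S array below it. Their sizes are not exact where signals lie below the control level. This is so for Ta.9718.1.S1_at, with all 6 drought arrays below it, for Ta.19805.2.S1_a_at, with a single drought array above it, and for Ta.1544.1.S1_at, Ta.13444.1.S1_at and Ta.9320.1.S1_at, with dim arrays in 1 regime. The cause was not tested.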

How the results depend on the processing

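Median scaling gave 1797 lower in R and 275 and 1021 graded calls higher and lower in R, quantile normalization 381 all-or-none in S, and the highest control level 284 graded and higher in R. Hybridization control scaling gave 1644 calls, 800 higher in R, and 104 and 247 graded. Poly-A control scaling gave 1741 calls, 471 lower in R, 161 all-or-none in S, 206 and 144 graded, and 742 also called under drought. With 1 array left out in turn, the calls ranged over 1546 to 3085 (851 to 1876 higher, 624 to 1245 lower), all-or-none ones over 349 to 874 in R and 187 to 318 in S, graded ones over 256 to 594 higher and 295 to 733 lower, and those also called under drought over 832 to 1190. The other alternatives stayed within 1.5 times. They were pseudocounts of 1 (2355 calls) and 64 (3144), no filter (2566), signals below the control level set to it (2550) and a fit to the 6 well-watered arrays (2514). The split of higher to lower was 1336 to 1178 in that last fit. With the replicate number as a block, 2551 were called. In the labels, same-numbered samples share only the number. The deviations of same-numbered R and S arrays from their group means correlated at −0.02, 0.05 and −0.04, which cannot exclude a shared batch. Of 73 named probe sets tested, 46 stayed on their side of the threshold under every alternative other than a left-out array. None passed the threshold in the opposite direction under any setting. Signals near the control level, and the wider spread of the R arrays, limit what can be measured.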

Other observations

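The share of probe sets that differed varied with the kind of probe set. Of those built on a wheat sequence cluster (Ta), 1875 of 22621 were called (8.29%), 1023 higher and 852 lower in R. Of the TaAffx ones, 922 of 15777 were called (5.84%), with 653 higher and 269 lower. Probe sets with A in place of S before the suffix of their ID were all-or-none in 204 of 6981 cases (2.92%), against 502 of 31417 for those with S (1.60%). None of the 64 reporter probe sets, which were not tested, lay above the control level on all arrays of one genotype and below it on all of the other.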
